A study of Tribolium castaneum with 6 samples.

Results

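The genes described here were the autosomal genes of the red flour beetle, *Tribolium castaneum*, that spread over at least 50 kb of genome. A gene entered when it carried a name in the deposited transcript tables, when all its transcripts lay on 1 assembled autosome, and when the distance from the smallest start to the largest end of its transcripts was 50000 bases or more. 427 genes met this rule, which were 3.46% of 12355 named autosomal genes, among 15099 genes and unnamed loci in all. FPKM values played no part in the choice. The span did count transcripts assembled from the reads beside annotated ones, and in 14 genes the annotated transcripts alone did not reach 50 kb. The 21 genes of this size on the X chromosome were not included.

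The study asked which transcripts depend on the catalytic subunit of AMP-activated protein kinase (TcAMPKα), an energy sensor of the cell. Both groups were larvae of the Georgia-1 strain, 20 days old, injected with 200 ng of double-stranded RNA and collected 6 days later. The dsTcAMPKα group received dsRNA against the kinase subunit, and the control (dsEGFP) group received dsRNA against EGFP, a jellyfish reporter that the beetle lacks. Each group had 3 libraries, called replicates 1 to 3 in the order of deposition and not paired between groups, each from 10 larvae pooled without regard to sex, so that a value averages over whole bodies and over individuals, and the transcript knockdown was not total. Between 33518139 and 37584930 reads per library stood behind the values, as estimated from the deposited coverage. Levels are in FPKM, which scales fragments by transcript length and by the fragments of the library, added over the transcripts of a gene. The targeted gene, *Snf1a*, stood at 77.3, 74.9 and 56.9 FPKM in the dsEGFP libraries and at 10.7, 7.32 and 16.3 FPKM in the dsTcAMPKα ones, which is −2.56 on the log2 scale (SE 0.287, limma adjusted p = 0.0164, n = 3 per group).

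A long gene is mostly intron. Its transcription takes long, its introns often carry enhancers, alternative promoters and whole other genes, and its messenger RNA after splicing may be of ordinary length. In insects, genes of this kind are known chiefly for work in the nervous system and in body patterning, among them cell adhesion molecules, axon guidance receptors, ion channels, Hox genes and the nuclear receptors of the ecdysone response.

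The beetle's long-span genes had this build. Leaving aside 3 transfer RNA names (*Trnaq-cug*, *Trnag-ucc* and *Trnas-gcu*), whose copies are scattered along a chromosome and are not single genes, the 424 others spanned 50161 to 504921 bases with a median of 84845, and 157 of them reached 100000 bases. The most abundant transcript had a median of 2763 nt after splicing and 7 exons, against 1448 nt and 4 exons in autosomal genes of shorter span, whose median span was 2426 bases. Where that transcript itself spanned 50 kb, as in 256 genes, the median share of its span that was spliced out was 96.3%. The other 168 genes owed their span to a less abundant transcript, and in 68 the most abundant transcript covered less than 5 kb. Long-span genes also listed more transcripts (median 4 against 1).

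Leaving aside the transfer RNA names, the 3 genes of largest span by the rule were *ckn*, *bru3* and *LOC659017*, and in *ckn* and *LOC659017* only an assembled transcript reached the full span. *Ckn*, a scaffold protein downstream of receptor tyrosine kinases in Drosophila, spanned 504921 bases (NC_007418.3:12946841-13451762 of the Tcas5.2 assembly), and its most abundant transcript, an assembled one of 9 exons and 3010 nt, covered all of them, whereas its annotated transcripts reached over 115463 bases. *Bru3*, a Bruno-family RNA-binding protein, spanned 433257 bases (NC_007425.3:2587315-3020572) in 12 exons and 2613 nt. *LOC659017* spanned 493140 bases, of which an assembled transcript of 7 exons covered 492578, while the annotated transcript that carried most of its FPKM covered 2544 bases. Its annotated transcripts reached over only 3574 bases, and its locus was shared with another gene name. 89 other named genes lay inside the limits of *LOC659017*, and 21 inside those of *ckn*. In all, 245 of the 424 held at least 1 other named gene within their limits, and the genes held added up to 856. 23 shared an assembled locus with another gene name, and reads there could have been divided between the names in ways that cannot be told apart.

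Long-span genes were unevenly spread over the chromosomes. The largest autosomal sequence, NC_007418.3, held 121 of them (28.3%) but 15.2% of the named autosomal genes, so that 6.44% of its genes were long, against 2.44% to 3.72% on the 8 other autosomes. Per megabase it held 3.86, against 2.49 to 3.08 elsewhere. The nuclear receptor gene *Eip78C*, the ryanodine receptor gene *RyR* and the transcription factor genes *Pan* and *Lola* were among those on this chromosome. The Hox genes of the list, *Abd-B*, *Abd-A*, *Ubx* and *Ptl* (the Antennapedia gene of the beetle), followed one another on NC_007417.3 between 7827212 and 8339433.

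At the border of the rule, the 3 genes just outside were *LOC664242* (49597 bases, mean 1.92 FPKM), *LOC661872* (49641 bases, 8.42 FPKM) and *Tmc* (49892 bases, 0.113 FPKM), and the 3 just inside were *LOC655365* (50161 bases, 8.75 FPKM), *Ccapr2* (50349 bases, 1.64 FPKM) and *wde* (50407 bases, 32.5 FPKM).

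Long-span genes were transcribed at low to moderate levels, and in every library their median lay below that of shorter-span genes. Over all 427, the median level was 6.71, 4.72 and 3.50 FPKM in the dsEGFP libraries and 6.31, 7.12 and 7.75 FPKM in the dsTcAMPKα libraries. For the 11928 shorter-span genes it was 9.24, 7.63 and 9.04 FPKM and 10.1, 10.3 and 10.4 FPKM, respectively. The lowest median of long-span genes was that of dsEGFP replicate 3, and those of the 2 groups overlapped. Their part of the summed FPKM of a library was 0.725% ± 0.0698 (SD, n = 3) in dsEGFP and 1.16% ± 0.0265 (SD, n = 3) in dsTcAMPKα, with no overlap between the groups. The summed FPKM itself differed, at 785135 to 832532 in dsEGFP and 661910 to 679634 in dsTcAMPKα. This share was not set against genes of the same transcript length.

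The difference in level remained when genes of the same transcript length were compared. Within classes of the length of the most abundant transcript, and among genes with a mean of at least 1 FPKM, long-span genes stood below shorter-span genes by a log2(FPKM + 1) difference of −0.49, −0.63 and −1.09 in the dsEGFP libraries and −0.85, −0.79 and −0.63 in the dsTcAMPKα libraries. The mean was −0.74 ± 0.31 (SD, n = 3) and −0.76 ± 0.12 (SD, n = 3), so the groups overlapped, and without the filter it was −0.65 ± 0.29 and −0.65 ± 0.14. Over all libraries it was −0.75, and only −0.18 among genes with a mean of at least 5 FPKM. The gap was wide among genes with short transcripts and narrow among genes with long ones. Below 1000 nt, the median was 4.92 FPKM for long-span and 25.8 FPKM for shorter-span genes, and from 2000 to 3000 nt it was 10.2 and 14.4 FPKM. Of 54 long-span genes below 1000 nt, tested or not, 36 had a most abundant transcript that covered less than 5 kb. Their length class is that of the short transcript and not of the long ones. With genes classed by their longest transcript, the difference over all libraries was −0.61. Within the class of 2000 to 3000 nt, genes of 100 kb or more had a median of 6.83 FPKM and genes of 50 to 100 kb one of 11.7 FPKM. These are descriptions over genes, which are not replicates.

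**Figure D1:**
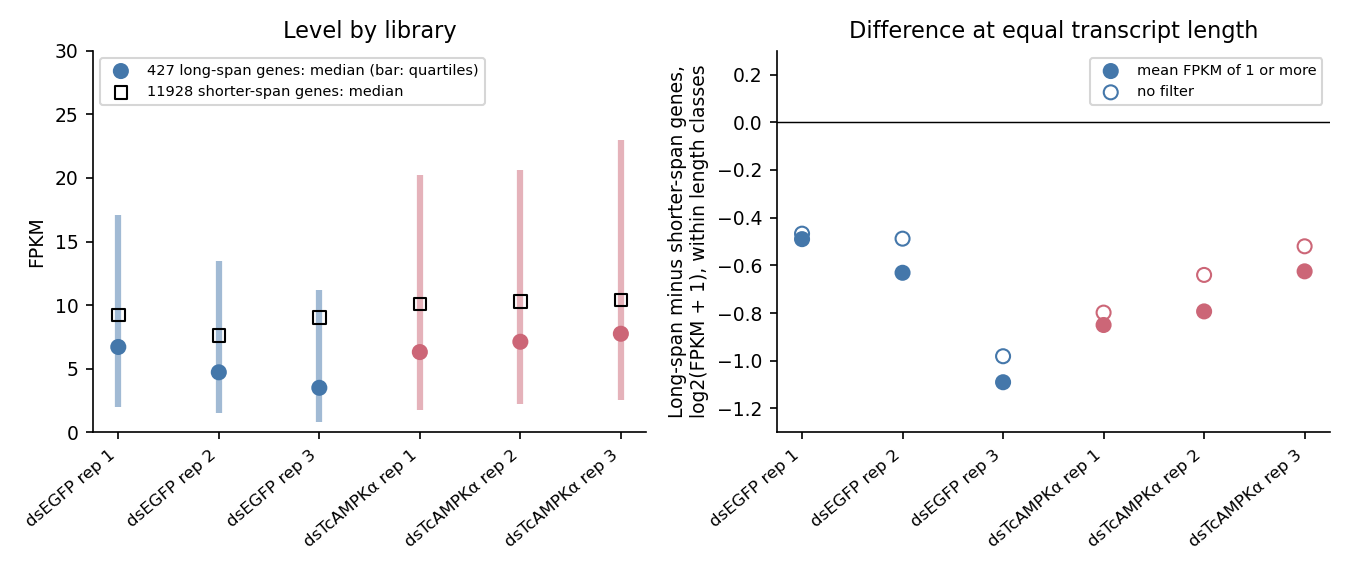
The left panel plots the median FPKM of the 427 long-span genes (filled points, bars from the lower to the upper quartile) and of 11928 shorter-span genes (open squares) in each library. The right panel plots the difference between long-span and shorter-span genes of the same transcript length on the log2(FPKM + 1) scale, with (filled) and without (open) the filter at a mean of 1 FPKM. All points in the right panel lie below 0, and dsEGFP replicate 3 lies lowest at −1.09.

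A few long-span genes were abundant. 10 had a mean above 100 FPKM and 29 above 50 FPKM. Shorter transcripts carried much of this. In dsEGFP, transcripts spanning 50 kb or more held on average 9.23% of the FPKM of *Lola*, 15.5% of *Polr2H* and 1.50% of *LOC662139*. The share was larger in *LOC656007* (43.8%) and *LOC103314980* (36.4%). *Lola*, a BTB zinc-finger factor that in Drosophila is spliced into many isoforms and guides axon growth, stood at 231, 176 and 236 FPKM in dsEGFP and at 269, 263 and 248 FPKM in dsTcAMPKα. Its groups did not overlap, but the log2 fold change of 0.29 (SE 0.165, limma adjusted p = 0.255) did not pass the test. *AstC-R2*, named for an allatostatin C receptor, stood at 195, 211 and 231 FPKM and at 273, 209 and 224 FPKM. Nearly all of this came from an assembled transcript of 1 exon, which covered 1503 bases and carried a mean of 209 FPKM in dsEGFP. The annotated receptor transcripts of this gene were all low, so its level is that of the short assembled unit.

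*Polr2H*, named for a subunit of RNA polymerase II, stood at 159, 163 and 151 FPKM in dsEGFP and at 112, 96.6 and 91.5 FPKM in dsTcAMPKα. The groups did not overlap, and the log2 fold change was −0.66 (SE 0.139, limma adjusted p = 0.0315), under the fold threshold of the test. *LOC662139* stood at 126, 89.2 and 167 FPKM in dsEGFP and at 299, 189 and 196 FPKM in dsTcAMPKα (adjusted p = 0.0857). *LOC103314980*, a gene of 215277 bases with 16 other genes inside it, stood at 48.5, 40.03 and 67.4 FPKM in dsEGFP and at 301, 98.5 and 119 FPKM in dsTcAMPKα, and its log2 fold change of 1.57 (SE 0.437) had an adjusted p of 0.0553. Replicate 1 of dsTcAMPKα was far above replicates 2 and 3. In *LOC103314980* only an assembled transcript crossed the span, at 20.8, 18.8 and 13.1 FPKM in dsEGFP. In dsTcAMPKα that transcript stood at 225, 21.7 and 70.8 FPKM. The annotated transcript covered 9689 bases, with means of 30.2 FPKM in dsEGFP and 51.9 FPKM in dsTcAMPKα. The locus was shared with another gene name. *LOC661963* varied widely within both groups, with 154, 129 and 501 FPKM in dsEGFP and 299, 365 and 142 FPKM in dsTcAMPKα. Nearly all of it came from 4 assembled transcripts of 1 exon, and the annotated transcript had a mean of 2.32 FPKM in dsEGFP and 3.04 FPKM in dsTcAMPKα.

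The levels of the genes of largest span differed widely. *LOC659017* stood at 111, 145 and 83.3 FPKM in dsEGFP and at 125, 118 and 113 FPKM in dsTcAMPKα, with overlap (adjusted p = 0.757). *Ckn* stood at 20.2, 14.01 and 6.39 FPKM in dsEGFP and at 14.6, 17.5 and 21.2 FPKM in dsTcAMPKα, with overlap. *Rbp6*, an RNA-binding protein of the Musashi type, stood at 14.7, 14.9 and 6.16 FPKM and at 9.99, 10.8 and 15.4 FPKM, with overlap. *Bru3* stood at 0.951, 0.57 and 0.13 FPKM in dsEGFP and at 1.85, 1.48 and 1.46 FPKM in dsTcAMPKα, without overlap (log2 fold change 0.78, SE 0.258, adjusted p = 0.0821). *Stg1*, named for a stargazin-like protein, stood at 16.3, 14.1 and 20.02 FPKM in dsEGFP and at 35.8, 29.2 and 28.02 FPKM in dsTcAMPKα (log2 fold change 0.85, SE 0.183, adjusted p = 0.0321), and most of this was a transcript of 1 exon.

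After knockdown, long-span genes stood higher on the whole, and so did genes of shorter span with transcripts of the same length. Of the 427, 357 had a mean of at least 1 FPKM and were tested, 70 were not, and 1 was listed at 0 in every library. The median log2 fold change of the tested genes was 0.50, against 0.20 for all 10981 tested genes, and 304 of them (85.2%) had a positive value, against 63.9% of all. Without the filter the medians were 0.40 and 0.11. Fold changes are on the log2(FPKM + 1) scale, which understates the change of low genes.

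These values were ordered by the length of the transcript in both long-span and shorter-span genes. From the shortest to the longest length class, the median log2 fold change of long-span genes was 0.11, 0.21, 0.44, 0.51, 0.73 and 0.82, and that of shorter-span genes −0.40, 0.13, 0.47, 0.66, 0.78 and 0.94. Long-span genes lay above shorter-span genes by 0.51 below 1000 nt and below them by up to 0.15 from 2000 nt on, which averaged over the classes to 0.03 on the log2 scale (0.04 without the filter). With genes classed by their longest transcript, the average was −0.09. From 50 to 100 kb the median was 0.50 (222 genes) and from 100 kb it was 0.53 (135 genes), against 0.57 for genes of 10 to 20 kb. Across the 357 genes, Spearman's rho of the log2 fold change was 0.43 with transcript length and 0.03 with span, where the genes share the same 6 libraries and are not independent replicates. When the trend of each library with transcript length was taken out (the length correction), the median was −0.05 and 43.7% of the values were positive, against 49.5% of all.

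**Figure D2:**
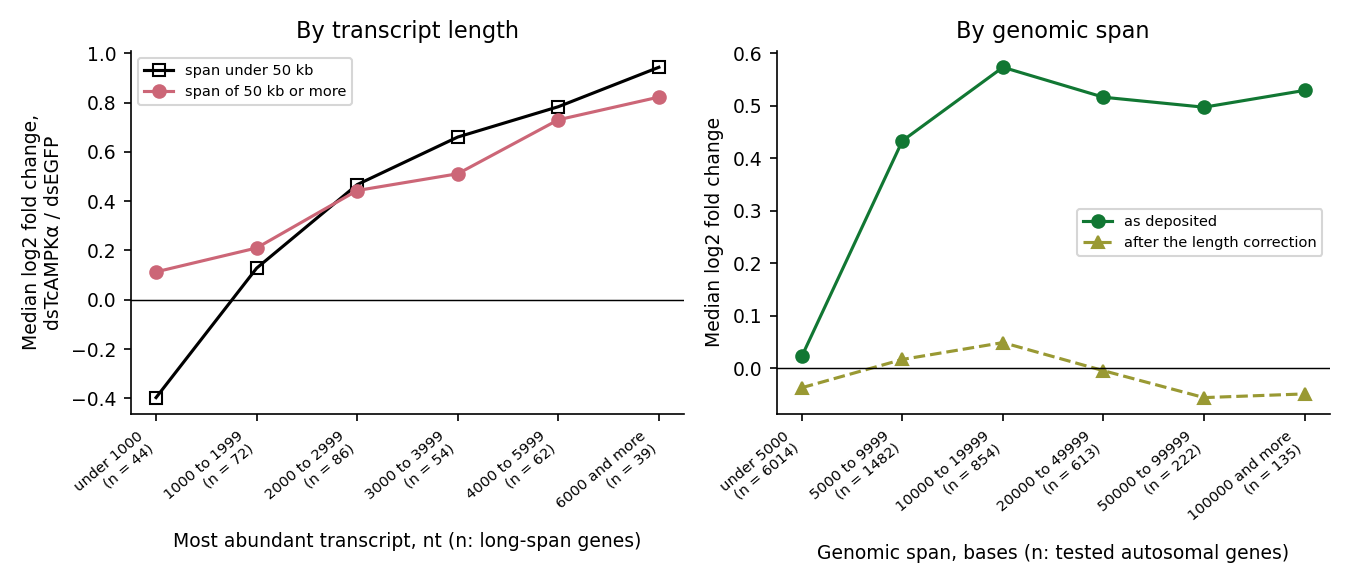
The left panel plots the median log2 fold change (dsTcAMPKα over dsEGFP) of long-span genes (filled) and shorter-span genes (open squares) against the length class of the most abundant transcript, rising from 0.11 to 0.82 and from −0.40 to 0.94. The right panel plots the same median against genomic span for all tested autosomal genes, as deposited (points) and after the length correction (triangles), where the 2 classes above 50 kb lie at 0.50 and 0.53 as deposited and slightly below 0 after the correction.

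The control library dsEGFP replicate 3 carried much of this shift. It was the lowest of the 6 libraries for 207 of the 357 genes (58.0%, against 26.7% of all tested genes), and dsTcAMPKα replicate 3 was the highest for 151 (42.3%, against 18.9%). In dsEGFP replicate 3, long-span genes lay −0.44 on the log2 scale from the mean of the other two controls, while shorter-span genes lay at 0.14. The deviation grew with transcript length, from −0.17 below 1000 nt to −1.11 from 6000 nt in long-span genes, and from 0.23 to −0.57 in shorter-span genes. Without this library the excess of the long-span median over that of all genes fell from 0.31 to 0.099, with medians of 0.35 and 0.25.

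22 long-span genes rose and 4 fell. To count, a gene had to pass a limma adjusted p of 0.05 and to differ by more than 1 on the log2 scale, in either direction. The 22 were 6.16% of the tested long-span genes, against 4.09% of all tested genes, and the 4 were 1.12%, against 2.71%. At any fold, 45 had an adjusted p under 0.05 in the higher direction (11.2% of all genes) and 9 in the lower direction (5.29% of all genes). Every dsTcAMPKα library lay above every dsEGFP library in 155 (43.4%, against 31.2% of all), and below in 12 (3.36%, against 13.6% of all). Among genes with transcripts of 4000 nt or more, 14 of 101 long-span genes (13.9%) and 25.6% of shorter-span genes rose.

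These calls depended on scaling and on single libraries. With median-ratio size factors, which moved the median of all genes from 0.20 to −0.01, 8 rose (1.48% of all genes) and 6 fell (4.08%). Quantile normalization gave 14 (2.13% of all) and 6 (2.93%), a rescaling of every library to the same total (TPM), which moved the median of all genes to 0.44, gave 72 (12.7% of all) and 3 (1.99%), and the length correction gave 4 (0.419% of all) and 2 (0.683% of all). Relative to the median of all genes, the long-span median was 0.31 as deposited, 0.31 with size factors, 0.25 after quantile normalization, 0.32 after the rescaling and −0.05 after the length correction. No long-span gene passed without dsEGFP replicate 2 or without any 1 of the dsTcAMPKα libraries, when only 0 to 77 genes passed in all (98, 91, 97 and 83 long-span genes then had an unadjusted limma p under 0.05). Without dsEGFP replicate 1, 25 rose (4.85% of all genes) and 3 fell (1.55%), and without dsEGFP replicate 3, 29 rose (6.24%) and 8 fell (4.67%). In all 26 the groups did not overlap, so a fit without 1 library could not turn their sign. Size factors and TPM shift whole libraries by less than the fold threshold and could not turn it either. The sign of all 26 also held after quantile normalization, and that of 24 after the length correction.

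The gene with the largest rise was *Cubn* (*LOC656345*, NC_007419.2:11851991-11907915), annotated as cubilin, which in vertebrates is an endocytic receptor for proteins and vitamin carriers. It stood at 3.85, 1.90 and 13.1 FPKM in dsEGFP and at 32.3, 29.1 and 34.7 FPKM in dsTcAMPKα. No library of one group reached the other, although control replicate 3 lay well above its own group. The log2 fold change was 2.50 (SE 0.543, limma adjusted p = 0.0328). Its single transcript had 50 exons and 11291 nt over a span of 55924 bases, and 79.8% of the span was spliced out.

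*LOC656175* (NC_007418.3:25573126-25633315), for which the study's annotation gives mucin-22 and RefSeq the chitinase symbol *Cht6*, stood at 2.39, 1.12 and 3.42 FPKM in dsEGFP and at 5.45, 9.21 and 16.3 FPKM in dsTcAMPKα. The groups did not overlap and the treated libraries were widely spread (log2 fold change 1.72, SE 0.428, adjusted p = 0.0418). *LOC664574*, a gene with no name of function here, stood at 1.53, 0.66 and 0.0647 FPKM and at 4.72, 3.16 and 5.27 FPKM (1.69, SE 0.355, adjusted p = 0.0313). *Sol1*, which in the nematode helps glutamate receptors at the membrane, spanned 283685 bases and stood at 8.18, 5.93 and 2.45 FPKM and at 20.8, 16.8 and 13.4 FPKM (1.56, SE 0.379, adjusted p = 0.0402). Its most abundant transcript had 2 exons and covered 2817 bases of the span. An annotated transcript over the full span stood at 0.44, 0.31 and 0.32 FPKM in dsEGFP. In dsTcAMPKα it stood at 0.39, 0.54 and 0.52 FPKM, with overlap. The rise of *Sol1* thus lay in short assembled transcripts of 2 exons.

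Several of the risen genes act on transcription or chromatin in Drosophila. *Wge* (winged eye), a chromatin protein, stood at 10.6, 7.95 and 4.39 FPKM in dsEGFP and at 20.9, 21.3 and 21.2 FPKM in dsTcAMPKα, where the treated libraries nearly coincided (log2 fold change 1.42, SE 0.285, adjusted p = 0.0293). *Pan* (pangolin), the TCF factor of Wnt signalling, stood at 11.3, 7.60 and 3.46 FPKM and at 19.7, 21.5 and 18.4 FPKM (1.42, SE 0.362, adjusted p = 0.0447). *Wde* (windei), a partner of a histone H3 methyltransferase, stood at 21.1, 15.4 and 21.8 FPKM and at 47.6, 44.5 and 44.3 FPKM (1.20, SE 0.17, adjusted p = 0.0211). In all of them the groups were apart, and in *wge* and *Pan* control replicate 3 was the lowest library.

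*Kn* (knot, the COE factor that shapes neurons, muscles and blood cells in Drosophila; NC_007417.3:13528749-13581798) stood at 0.545, 1.04 and 0.933 FPKM in dsEGFP and at 3.13, 3.19 and 3.49 FPKM in dsTcAMPKα. It was low in all controls and alike in all treated libraries (log2 fold change 1.22, SE 0.195, adjusted p = 0.0232), and it was the only one of the 22 that also passed after the length correction (1.77, adjusted p = 0.0207). Its most abundant transcript, an assembled one of 1 exon and 450 nt, had means of 0.434 and 0.957 FPKM in the groups, so that most of the rise lay in the annotated transcripts of 13 to 15 exons. The length correction used the 450 nt. *Pnt* (pointed), the ETS factor downstream of the epidermal growth factor receptor, stood at 42.4, 34.9 and 39.2 FPKM and at 98.6, 75.2 and 80.4 FPKM, well apart (1.10, SE 0.161, adjusted p = 0.0217).

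RNA-binding proteins were also among the risen genes. *Brat* (brain tumor), a translational repressor that restrains growth of neural stem cells in Drosophila, stood at 19.4, 14.1 and 9.03 FPKM in dsEGFP and at 37.5, 38.0 and 36.0 FPKM in dsTcAMPKα (log2 fold change 1.39, SE 0.263, adjusted p = 0.0274). *Mbl* (muscleblind), a splicing factor of muscle and eye, stood at 27.8, 21.4 and 13.8 FPKM and at 50.2, 49.3 and 43.6 FPKM (1.19, SE 0.253, adjusted p = 0.0315). Neither gene's groups overlapped.

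Genes named for a Notch protease, an adhesion protein and a myosin rose as well. *Kuz* (kuzbanian), the protease of the ADAM family that cleaves Notch, stood at 16.9, 13.5 and 18.6 FPKM in dsEGFP and at 48.5, 32.2 and 40.1 FPKM in dsTcAMPKα (log2 fold change 1.25, SE 0.204, adjusted p = 0.0238). *LOC662797*, annotated as lachesin-like, an immunoglobulin-domain adhesion protein of neurons and tracheae, stood at 1.56, 0.934 and 0.976 FPKM and at 4.84, 4.43 and 4.00 FPKM (1.34, SE 0.197, adjusted p = 0.0217). *Mhcl* (myosin heavy chain-like), an unconventional myosin, stood at 19.3, 17.2 and 15.3 FPKM and at 47.3, 37.4 and 39.7 FPKM (1.22, SE 0.16, adjusted p = 0.02). The annotated transcript of *Mhcl* had a mean of 0.0091 FPKM in dsEGFP and 0 FPKM in dsTcAMPKα. The level of *Mhcl* was thus that of assembled transcripts, in a locus shared with another gene name. In these genes every treated library exceeded every control. The calcium release channel of the endoplasmic reticulum, *RyR*, also rose, from 5.07, 4.18 and 2.31 FPKM to 7.66, 10.3 and 9.71 FPKM (1.11, SE 0.265, adjusted p = 0.0391), but after the length correction its value was −0.08. The same turn of sign was seen in *LOC661291* (1.05 and −0.14), and these were the only 2 of the 26.

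The remaining risen genes carried no name of function here. *LOC103313433* rose by 1.35, *LOC656174* by 1.30 and *LOC657429* by 1.19 on the log2 scale, and *LOC654946*, *LOC660712* and *LOC656926* by 1.00 to 1.02. With median-ratio size factors, *Cubn*, *LOC664574*, *brat*, *LOC662797*, *LOC656174*, *kuz*, *kn* and *LOC657429* still passed.

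**Figure D3:**
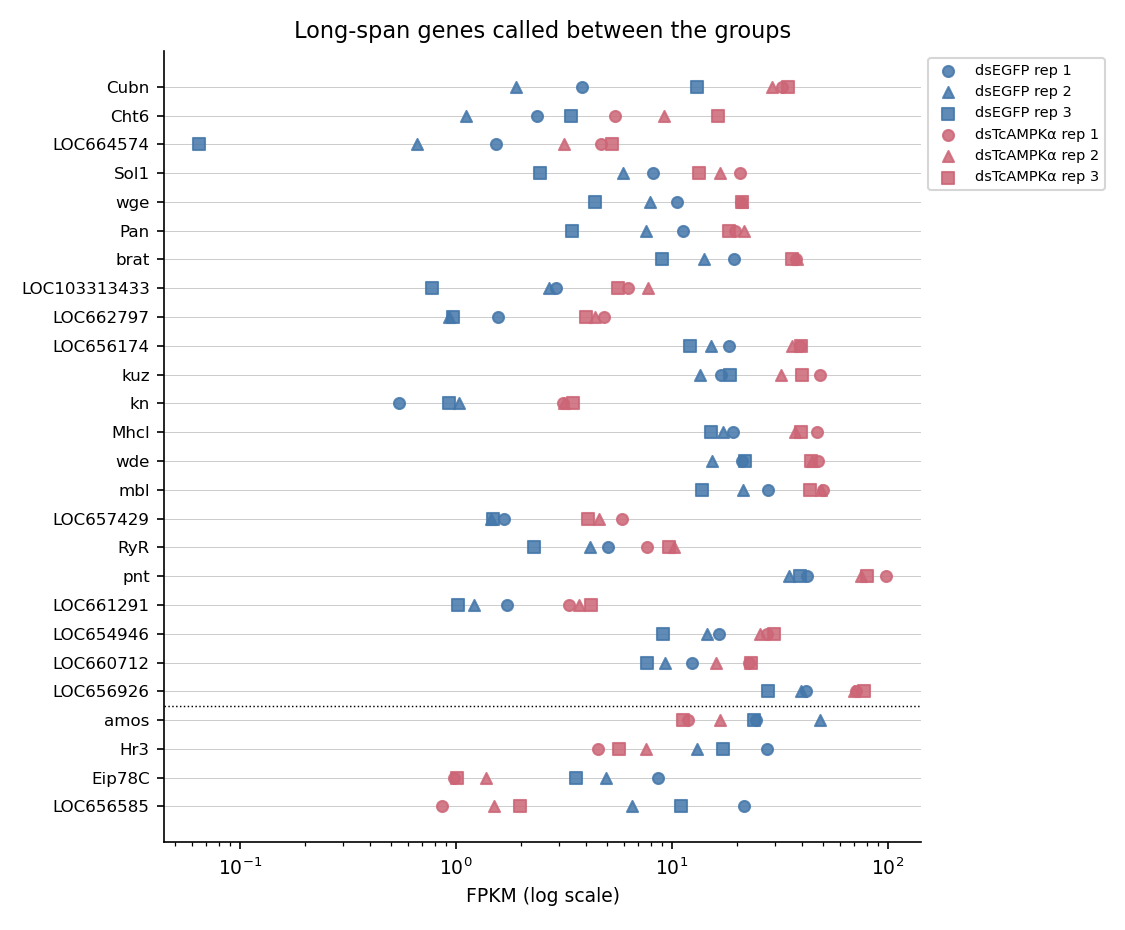
Each row is a long-span gene that passed the test and each point the FPKM of 1 library on a log axis, blue for dsEGFP and red for dsTcAMPKα, with a marker for each replicate number. The 22 genes above the dotted line rose and the 4 below it fell, and in every row the blue and red points are apart, from *Cubn* (log2 fold change 2.50) at the top to *LOC656585* (−2.40) at the bottom.

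Of the 4 genes that fell, 2 were nuclear receptors of the ecdysone response, the hormone pathway that times larval molts and metamorphosis. *Hr3* (NC_007422.5:11610356-11668950), a receptor induced in the wake of an ecdysone pulse, stood at 27.7, 13.1 and 17.3 FPKM in dsEGFP and at 4.58, 7.65 and 5.72 FPKM in dsTcAMPKα. The lowest control remained above the highest treated library (log2 fold change −1.51, SE 0.303, limma adjusted p = 0.0293, and −2.18 after the length correction, adjusted p = 0.0248). *Eip78C* (NC_007418.3:27605162-27688089), an early ecdysone-inducible receptor in Drosophila, stood at 8.66, 4.94 and 3.60 FPKM and at 0.986, 1.38 and 1.01 FPKM, without overlap (−1.60, SE 0.299, adjusted p = 0.0273). After the length correction its adjusted p was 0.15.

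The steepest fall was in *LOC656585* (NC_007418.3:18020622-18076292), a gene of 8 exons with no name of function here, which stood at 21.6, 6.57 and 11.03 FPKM in dsEGFP and at 0.868, 1.50 and 1.98 FPKM in dsTcAMPKα (log2 fold change −2.40, SE 0.416, adjusted p = 0.0247, and −2.98 after the length correction, adjusted p = 0.0298). The controls differed widely among themselves and lay above all treated libraries. *Amos*, a proneural factor for olfactory sense organs in Drosophila, stood at 24.7, 48.4 and 24.1 FPKM and at 11.9, 16.8 and 11.3 FPKM (−1.16, SE 0.308, adjusted p = 0.0485). Its most abundant transcript, an assembled one, covered 656 bases and had means of 27.6 FPKM in dsEGFP and 11.4 FPKM in dsTcAMPKα. The 2 annotated transcripts had means of 0.831 and 2.00 FPKM in dsEGFP and of 0.180 and 0.294 FPKM in dsTcAMPKα. The level of *amos* was thus mostly that of the short assembled transcript. Its locus was shared with another gene name, and 14 other genes lay within its limits.

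No other gene of the ecdysone list passed the test. Of 8 listed, all were tested, 2 fell and none rose, and the median log2 fold change was 0.19, which turned to −0.03 with size factors, −0.03 after quantile normalization and −0.27 after the length correction. The hormone's receptor, *Ecr*, stood at 26.0, 18.2 and 15.2 FPKM in dsEGFP and at 18.1, 27.2 and 21.8 FPKM in dsTcAMPKα, with overlap (0.18, SE 0.244, adjusted p = 0.623). *Ftz-f1*, a competence factor that follows *Hr3* in Drosophila, stood at 13.6, 20.6 and 14.1 FPKM and at 24.5, 20.4 and 63.2 FPKM (adjusted p = 0.155), with 1 treated library far above the rest. The early gene *Eip74EF* had a value of 0.21 (adjusted p = 0.714), *phtm*, a cytochrome P450 of hormone synthesis, 0.09 (adjusted p = 0.826), and the receptor coactivator *tai* 1.28 (SE 0.537, adjusted p = 0.138).

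Genes that wire the nervous system had levels of a few FPKM and positive values for the most part. Positive values were also the rule among all tested long-span genes (85.2%) and all tested genes (63.9%). In the lists for axon guidance, adhesion and synapses no gene passed both thresholds. Genes within these role lists were picked for the text after their values were seen. Of 15 axon guidance cues and receptors, 14 were tested and 13 had a positive value, with a median of 0.52 and of −0.12 after the length correction. The secreted repellent *sli* stood at 4.87, 2.27 and 0.554 FPKM in dsEGFP and at 2.02, 3.68 and 3.40 FPKM in dsTcAMPKα, with overlap (adjusted p = 0.634). Its receptor *robo1* stood at 5.07, 4.40 and 4.40 FPKM and at 6.22, 7.74 and 5.59 FPKM, without overlap (0.41, SE 0.177, adjusted p = 0.145). *Mical*, an actin-oxidizing enzyme in semaphorin signalling, stood at 15.1, 13.3 and 18.5 FPKM and at 24.2, 26.1 and 32.0 FPKM, without overlap (0.78, SE 0.184, adjusted p = 0.0383, under the fold threshold). The receptor gene *side-VII* was the exception in sign, at 5.96, 5.45 and 0.866 FPKM and at 0.929, 2.20 and 0.719 FPKM (−0.99, SE 0.551, adjusted p = 0.236).

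Of 18 adhesion and matrix genes, 16 were tested, 13 had a positive value and none passed both thresholds (median 0.63, and −0.01 after the length correction). The lachesin-like gene *LOC662797*, which rose, had no symbol and was not on this list. Without dsEGFP replicate 3 the median was 0.20. *CadN*, the neural cadherin, stood at 9.54, 5.25 and 1.85 FPKM in dsEGFP and at 13.4, 9.73 and 13.6 FPKM in dsTcAMPKα, and *Ten-m*, a teneurin that matches synaptic partners, at 8.21, 5.52 and 1.95 FPKM and at 11.8, 8.93 and 12.7 FPKM. Both had non-overlapping groups and a low control replicate 3 (adjusted p = 0.118 and 0.112). *LanB2*, the laminin gamma chain of basement membranes, stood at 10.8, 6.17 and 23.1 FPKM and at 77.8, 27.0 and 39.3 FPKM, with large spread in both groups (1.82, SE 0.536, adjusted p = 0.0626). *Fas1*, an adhesion protein of axon bundles, stood at 43.5, 40.9 and 42.9 FPKM and at 99.0, 59.1 and 71.4 FPKM (0.80, SE 0.206, adjusted p = 0.0448, under the fold threshold).

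At the synapse, 8 of 10 listed genes were tested and 7 had a positive value (median 0.68, and −0.07 after the length correction). *CASK*, a membrane scaffold kinase, stood at 7.12, 8.42 and 5.26 FPKM in dsEGFP and at 15.5, 13.03 and 12.6 FPKM in dsTcAMPKα (0.90, SE 0.2, adjusted p = 0.0338). *Liprin-alpha*, which places synaptic vesicles, stood at 5.96, 3.93 and 4.20 FPKM and at 8.13, 8.19 and 9.63 FPKM (0.77, SE 0.193, adjusted p = 0.0426). *Dlg1*, the discs large scaffold of synapses and septate junctions, stood at 35.6, 29.4 and 33.6 FPKM and at 51.7, 46.4 and 58.2 FPKM (0.65, SE 0.151, adjusted p = 0.0377). All of them had separate groups and stayed under the fold threshold. *Cpx* (complexin), a brake on vesicle fusion, was at −0.11 (adjusted p = 0.729).

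Ion channel genes were low, from 0.417 to 8.32 FPKM on average. Of 14 listed, 12 were tested, *RyR* rose and none fell (median 0.57, and −0.12 after the length correction). *Slo*, a calcium-activated potassium channel, stood at 4.28, 4.21 and 3.83 FPKM in dsEGFP and at 6.45, 5.59 and 7.75 FPKM in dsTcAMPKα (0.56, SE 0.174, adjusted p = 0.0693). *Cac*, the calcium channel of presynaptic terminals, stood at 5.00, 1.89 and 0.265 FPKM and at 3.27, 3.82 and 5.25 FPKM (adjusted p = 0.298). The controls of *Cac* differed more among themselves than the groups did, whereas those of *slo* were alike.

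The nervous system markers of the whole body had higher sums after knockdown. The sums are of FPKM as deposited, without the length correction, after which the medians of the lists for axon guidance, synapses and ion channels were below 0. Positive values were also the rule among all tested genes (63.9%). 10 marker genes of neurons, of which *Cac* was also a long-span gene, summed to 75.7 to 106 FPKM in dsEGFP and to 132 to 154 FPKM in dsTcAMPKα. All 10 were found, none was at 0 in any library, and none of the 8 that were tested passed. Markers of the midgut (8 of 8 found) summed to 1950 to 3510 and 1650 to 2490 FPKM, and those of the epidermis (9 of 9 found, 1 with a 0) to 458 to 706 and 403 to 613 FPKM, with overlap in both, and 1 midgut marker rose. The part of tissue make-up in the values above was not tested, and in whole larvae more cells of a type cannot be told apart from more RNA per cell.

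Genes for peptide hormones and their receptors had small values. Of 11 listed, 8 were tested, none passed both thresholds, and the median was 0.14, which turned to −0.05 with size factors. *Dh31*, a diuretic hormone of gut and neurons, stood at 36.5, 43.1 and 34.9 FPKM in dsEGFP and at 23.1, 18.1 and 16.5 FPKM in dsTcAMPKα, so that all treated libraries were below all controls (−0.96, SE 0.177, adjusted p = 0.0267, just under the fold threshold). *Dh44*, the other diuretic hormone gene, stood at 29.4, 30.6 and 38.2 FPKM and at 28.0, 31.6 and 37.8 FPKM (−0.01, adjusted p = 0.966). Their most abundant transcripts were 491 and 896 nt long.

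Among 6 genes of cyclic nucleotide signalling, all had a positive value and none passed (median 0.57, and 0.04 after the length correction). The phosphodiesterase gene *dnc* stood at 53.3, 59.7 and 63.9 FPKM in dsEGFP and at 60.3, 68.4 and 93.3 FPKM in dsTcAMPKα, with overlap (adjusted p = 0.301). *For*, the cGMP-dependent kinase of the foraging locus, stood at 50.3, 48.3 and 48.3 FPKM and at 62.7, 65.1 and 88.1 FPKM, without overlap (0.53, SE 0.168, adjusted p = 0.0745). *Rut*, an adenylyl cyclase of learning in Drosophila, stood at 7.60, 6.22 and 0.63 FPKM and at 10.2, 8.76 and 12.9 FPKM (1.30, SE 0.621, adjusted p = 0.179). The low value of control replicate 3 recurred in *rut* and not in *dnc* or *for*, whose transcripts were 7075, 2113 and 2590 nt long.

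Among 27 patterning and fate transcription factors, 25 were tested, 3 rose (*Pan*, *kn* and *pnt*) and *amos* fell (median 0.39, and −0.22 after the length correction). The level of *amos* was mostly that of a short assembled transcript. The Hox genes *Ubx*, *Abd-A*, *Ptl* and *Abd-B* did not pass the test. *Ubx* stood at 5.99, 4.07 and 3.68 FPKM in dsEGFP and at 6.67, 8.51 and 11.9 FPKM in dsTcAMPKα (0.83, SE 0.26, adjusted p = 0.0708). *Abd-A* stood at 3.14, 2.35 and 2.30 FPKM and at 4.03, 4.92 and 5.01 FPKM (0.66, SE 0.185, adjusted p = 0.0567). *Ptl* stood at 9.18, 8.83 and 8.01 FPKM and at 9.84, 10.3 and 14.3 FPKM (adjusted p = 0.213). The groups were apart in these Hox genes and overlapped in *Abd-B*, at 2.42, 2.46 and 2.05 FPKM and at 1.94, 2.78 and 4.31 FPKM.

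Of the other factors with a symbol in the files, *Doc* (5.50, 4.99 and 5.65 FPKM, then 6.74, 6.23 and 7.10 FPKM) had separate groups, and *Hth*, *Tiotsh*, *AP-2* and *Al* overlapped, with log2 fold changes of 0.78, 0.39, −0.50 and −0.51 and adjusted p of 0.21 to 0.493. *Pros* (prospero), which ends division in neural precursors of Drosophila, stood at 6.71, 4.00 and 0.789 FPKM in dsEGFP and at 18.7, 13.4 and 9.84 FPKM in dsTcAMPKα (1.82, SE 0.543, adjusted p = 0.0638). Its groups did not overlap, and its controls were widely spread.

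In the RNA-binding list all 8 genes were tested and positive, and *brat* and *mbl* rose (median 0.66, and 0.16 after the length correction). In the cytoskeleton and muscle list, 8 of 9 were tested, all were positive and *Mhcl* rose (median 0.62, and −0.13 after the length correction). *Shot*, the spectraplakin that links actin and microtubules, had the longest most abundant transcript of this list at 25020 nt and stood at 20.2, 13.6 and 4.27 FPKM in dsEGFP and at 25.5, 26.7 and 34.6 FPKM in dsTcAMPKα (1.33, SE 0.495, adjusted p = 0.106, and −0.01 after the length correction). *Msp300*, a nesprin of muscle, stood at 32.8, 22.6 and 18.1 FPKM and at 35.1, 25.6 and 48.4 FPKM, with overlap.

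Genes near the work of AMPK itself, in nutrient and growth signalling, showed no change that passed the test. Of 6 listed, 5 were tested (median 0.30, and −0.13 after the length correction). *Foxo*, the transcription factor held back by insulin signalling, stood at 34.7, 30.5 and 20.3 FPKM in dsEGFP and at 46.3, 41.4 and 46.9 FPKM in dsTcAMPKα (0.67, SE 0.216, adjusted p = 0.0774). *Sesn*, a sestrin that in Drosophila acts upstream of AMPK and TOR, stood at 86.9, 74.1 and 51.0 FPKM and at 89.7, 67.4 and 95.9 FPKM (adjusted p = 0.457). *Glut1*, a glucose transporter, stood at 61.0, 66.8 and 27.9 FPKM and at 38.6, 35.3 and 28.6 FPKM (−0.50, adjusted p = 0.321). Groups were separate in *foxo* and overlapped in *Sesn* and *Glut1*. The fatty acid desaturase gene *D12des* stood at 74.2, 89.8 and 53.0 FPKM and at 87.4, 115 and 145 FPKM, with overlap (adjusted p = 0.121). *Lac2*, the laccase of cuticle tanning and no part of this list, overlapped as well (51.7, 49.0 and 25.7 FPKM, then 38.9, 44.2 and 51.0 FPKM).

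**Figure D4:**
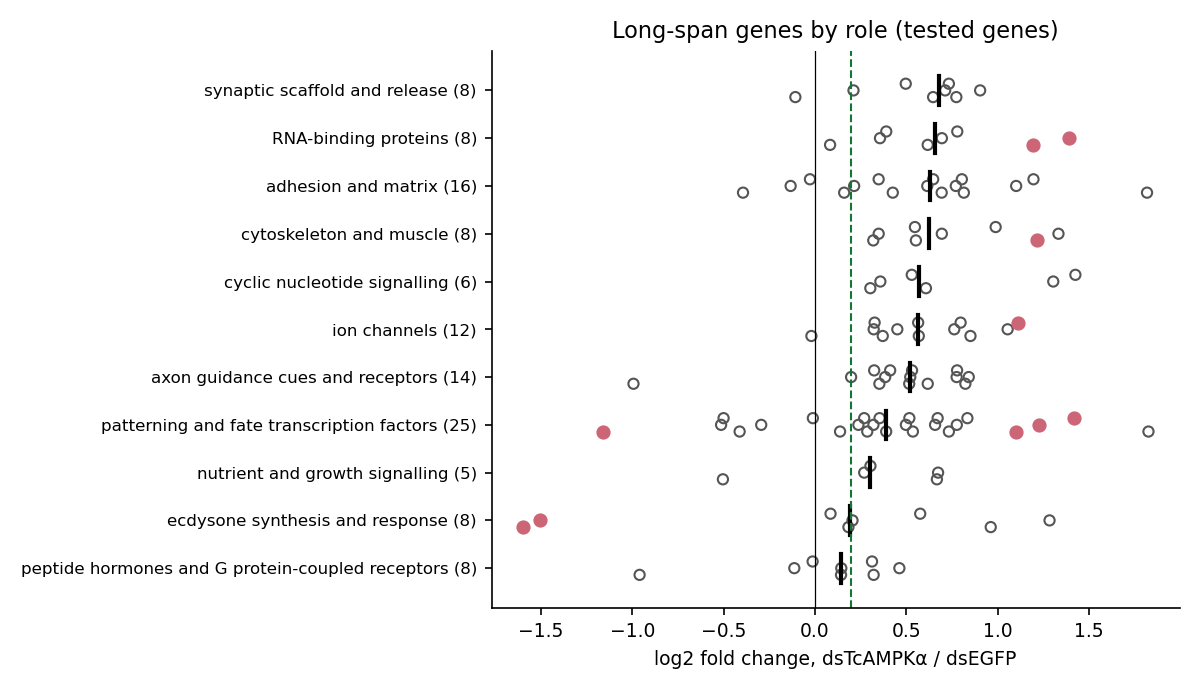
Each point is the log2 fold change of a tested long-span gene, grouped by role with the number tested in brackets, filled where the gene passed the test, with a black bar at the median of the list and a dashed line at 0.20, the median of all tested genes. Medians run from 0.14 for peptide hormones and receptors to 0.68 for synaptic genes, and 8 of the 11 lay at −0.01 or below after the length correction, which is not drawn.

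Over the 132 genes of the role lists, 118 were tested. Of these, 7 rose and 3 fell, where 4.09% and 2.71% of all tested genes did. A positive value was seen in 100 of the 118, against 85.2% of the tested long-span genes and 63.9% of all. The median was 0.52 (−0.11 after the length correction, and 0.32 without dsEGFP replicate 3). Without that library the medians of the 11 lists ran from 0.05 for nutrient signalling to 0.52 for the cytoskeleton. In the process lists drawn from the study's gene ontology table, which was partly cut, few genes were long. Long-span genes made up 9 of the 55 tested genes for the wiring of axons and dendrites, 6 of 23 for homophilic cell adhesion and 11 of 56 for potassium and calcium transport and 6 of 46 for appendage, vein and bristle patterning, and 1 or none of those for synaptic transmission (42), neuropeptide signalling (22), muscle (18) and fatty acid synthesis and glycolysis (51). Of these, *RyR* alone passed the test. The median of the long-span genes was 0.43, 0.54, 0.56 and 0.12 in the wiring, adhesion, transport and patterning lists, and that of the whole lists 0.45, 0.43, 0.42 and 0.34.

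Many long-span genes mix transcripts that cross the whole locus with others that start or end within it. For 243 tested genes with both, the median share of a gene's FPKM that came from transcripts spanning at least 50 kb was 39.2%, 39.1% and 21.9% in the dsEGFP libraries and 38.4%, 37.9% and 39.7% in the dsTcAMPKα libraries. Control replicate 3 stood apart and the other 5 libraries lay between 37.9% and 39.7%, so the group means of 33.4% ± 9.96 and 38.7% ± 0.912 (SD, n = 3) rest on that library. For 51 of the genes the share was below 10% and for 27 above 90%.

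In *Abd-B*, the most posterior Hox gene, the long transcripts carried 22.4%, 0% and 0.316% of the FPKM in dsEGFP and 44.0%, 66.0% and 87.9% in dsTcAMPKα. The short transcript of 9436 bases stood at 1.83, 1.94 and 2.04 FPKM in the controls and at 1.09, 0.944 and 0.356 FPKM after knockdown, so that it was lower in every treated library, and the long transcripts were all listed at 0 in control replicate 2. The difference of 58.4 points had an exact two-sided permutation p of 0.1, the smallest that 3 against 3 libraries allow. In *Snoo* (named for the Sno oncogene family of Smad partners), the long share was 43.9%, 42.7% and 3.03% and then 73.7%, 69.2% and 70.6% (41.3 points, exact permutation p = 0.1). Its long transcript stood at 7.54, 5.03 and 0.235 FPKM and at 11.4, 11.5 and 12.3 FPKM, and a transcript of 1 exon at 7.79, 5.59 and 7.47 FPKM and at 3.20, 3.94 and 3.94 FPKM.

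*Eip78C* joined a fall in level to a shift between transcripts. The long transcript of 8 exons stood at 4.03, 2.66 and 0.162 FPKM in dsEGFP and at 0.772, 1.03 and 0.839 FPKM in dsTcAMPKα, with overlap through control replicate 3. The transcript of 1 exon and 485 nt stood at 4.63, 2.28 and 3.44 FPKM and at 0.213, 0.342 and 0.173 FPKM, without overlap. The long share was 46.6%, 53.8% and 4.50% and then 78.3%, 75.1% and 82.9% (43.8 points, exact permutation p = 0.1).

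The share went the other way in *zfh2*, a large zinc-finger homeodomain factor, at 68.2%, 82.5% and 100% in dsEGFP and 35.0%, 44.0% and 44.2% in dsTcAMPKα (−42.5 points, exact permutation p = 0.1). 3 of its 7 transcripts spanned less than 50 kb, and together they were listed at 0 in control replicate 3. *LOC659717*, a gene of 3 transcripts, had 100% in all controls and 100%, 15.9% and 23.1% after knockdown (−53.7 points, exact permutation p = 0.4), so that 1 treated library was like the controls. Its level was 0.434, 0.268 and 0.209 FPKM in dsEGFP and 0.195, 3.13 and 2.80 FPKM in dsTcAMPKα, so the shares of 100% come from very low levels. The only transcript under 50 kb was an assembled one of 1 exon and 261 nt. These 5 genes were named because their shares differed most, and the tests therefore describe them only.

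**Figure D5:**
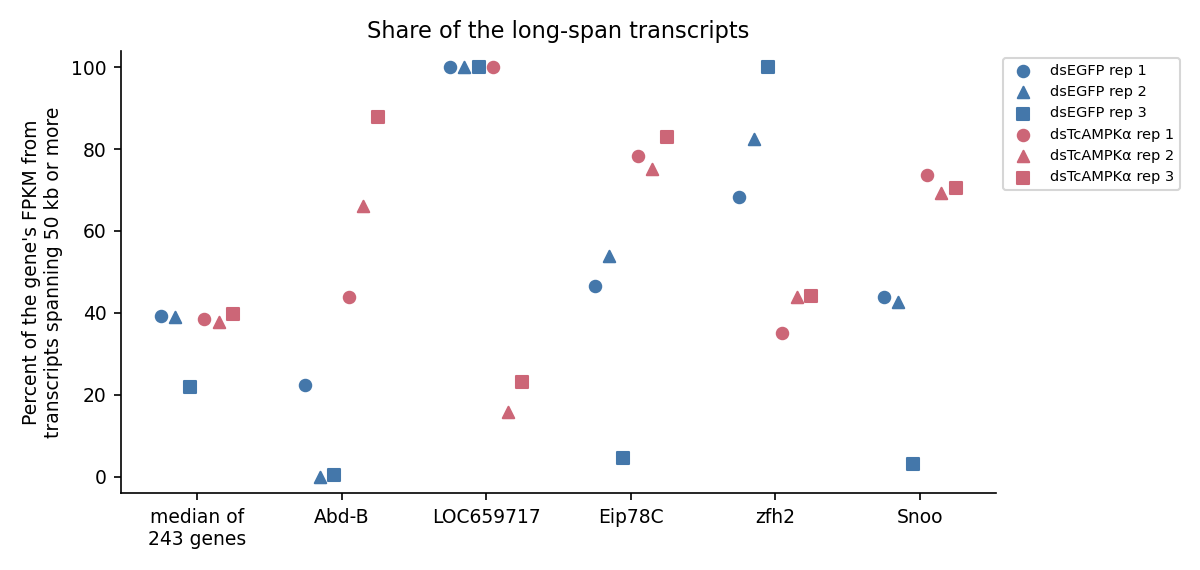
Points give the percent of a gene's FPKM that came from transcripts spanning 50 kb or more in each library, blue for dsEGFP and red for dsTcAMPKα, as the median over 243 genes and for the 5 genes with the largest group difference. The median is 37.9% to 39.7% in 5 libraries and 21.9% in dsEGFP replicate 3, and in *Abd-B*, *Eip78C* and *Snoo* all red points lie above all blue ones.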

How the data were processed

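RNA-Seq libraries of 150 nt reads from 3 dsEGFP and 3 dsTcAMPKα pools were used, grouped by their labels. The authors aligned reads to the Tcas5.2 assembly and assembled and quantified transcripts, and the submitters' processing notes name HISAT2, Bowtie2, TopHat2 and StringTie. The deposited tables give FPKM and coverage for 31944 transcripts per library, with assembled transcripts beside annotated ones. The authors normalized FPKM by transcript length and by fragments per library. Coverage served only to estimate reads. The tables hold no counts and no use of strand is stated, so genes on opposite strands of a locus may share reads.

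FPKM were summed by gene name. Genes with a mean of at least 1 FPKM were fitted as log2(FPKM + 1) with limma 3.58.1 (lmFit, eBayes with trend) in R 4.3.3, with Benjamini-Hochberg adjustment over 10981 genes and thresholds of 0.05 and 1 on the log2 scale. The study's own count test was not repeated. Tables were handled in Python 3.11.15, and exact two-sided permutation tests used scipy 1.17.1. The length correction removed a lowess trend (span 0.4) of log2(FPKM + 1) on the length of the most abundant transcript from each library. The fit was tested on simulated data. Alternatives changed the pseudocount, filter, scaling, variance prior, definition of span or length, and left out each library. Gene symbols came from RefSeq (icTriCast1.1 annotation, names only), in which 403 of the 427 genes matched by gene ID and 213 had a symbol. Names of roles follow these symbols.

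The text names the 10 genes of highest level, the 10 of largest span, up to 15 called in each direction, genes with a symbol in the files, those next to the threshold, and 5 by transcript share. The other called genes and those of the role lists were named after their values were seen. Members and lists were chosen with earlier results of these data known, and the role lists after the files were seen. The study describes its replicates as independent, and the labels do not say how the pools were drawn, so p-values measure the spread between these pools. With 3 against 3, an exact permutation p cannot be below 0.1.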

Additional observations from a re-analysis of the deposited data

How the results depend on the processing

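The median log2 fold change of 0.50 kept its sign in all fits but the length correction, where it was −0.0514. From the 22 genes that rose, counts were 8 with median-ratio size factors, 14 after quantile normalization, 72 after rescaling to TPM and 4 after the length correction, 6 for a span of 100 kb or more and 14 by the span of the most abundant transcript. Leaving out 1 library gave 0 to 29. From the 4 that fell, the length correction gave 2, a span of 100 kb 0, the span of the most abundant transcript 2, and leaving out 1 library 0 to 8. The level difference at equal transcript length, −0.75 over both groups, became −0.18 for genes with a mean of at least 5 FPKM and −1.13 for spans of 100 kb or more. Without 1 library, *Snf1a* had log2 fold changes of −2.83 to −2.30, with adjusted p above 0.05 without dsEGFP replicate 2 or dsTcAMPKα replicate 1 or 2. The causes were not tested. FPKM give no counting error, so depth sets no interval here. The planned search of promoter sequences was not run. No paired analysis was possible because the labels carry no replicate numbers.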
